A study of Mus musculus with 8 samples.

Results

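The 10 genes described here encode antimicrobial and granule proteins of Paneth cells other than the defensins: Lyz1, Lyz2, Reg3b, Reg3g, Reg4, Ang4, Itln1, Mptx1, Mptx2 and Mmp7. They were chosen by name, as the rows of the count table whose Ensembl identifier carries these symbols, 10 of 53801 genes, and all 10 passed the filter on low counts. FACS gave 300 viable EpCAM+ Cd24+ cells per sample from the small intestine, 10 d after induction, in 2 groups of 4 mice. The controls 1 to 4 were β-cat GOF; Mll1+/-, and the knockouts 1 to 4 were β-cat GOF; Mll1-/-. Both genotypes carried a β-catenin allele that loses exon 3 on recombination, which stabilises the protein and keeps Wnt signalling active, and differed in whether the floxed Mll1 alleles were heterozygous or homozygous. Recombination was driven by Lgr5-EGFP-IRES-CreERT2 and started by 3 injections of 1 mg tamoxifen. This driver acts in crypt stem cells and is expressed in patches, so that recombined and non-recombined crypts can lie side by side. The study checked the loss of Mll1 in crypts, Paneth cells at their base included, by immunohistochemistry at the stage of the sort, and the gate itself held no marker of recombination. The study's paragraph on the sorting names the Mll1 littermates without β-cat GOF, whereas the design text names both alleles, and the genotypes used here are those of the labels. The mice were 4 to 6 wk old at induction, and nothing in the labels ties a replicate number to a litter or day. Control 4 and knockout 4 share an animal number in their labels and were not paired. The comparison asks whether loss of the histone methyltransferase Mll1, under active Wnt signalling, changes the antimicrobial programme of Paneth cells.

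Paneth cells sit at the base of small intestinal crypts and release granules into the crypt lumen. Lysozyme cuts the peptidoglycan of bacterial walls, the Reg3 lectins bind bacterial surface sugars and damage membranes, and matrilysin, encoded by Mmp7, cuts the pro-forms of mouse α-defensins into active peptides. The granule proteins are used as the standard markers of the cell type in staining and RT–PCR.

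Several of these genes are near copies of each other, which decides how the counts can be read. The coding sequences of Lyz1 and Lyz2 were identical at 422 of 444 bases, those of Mptx1 and Mptx2 at 604 of 657, and those of Reg3b and Reg3g at 399 of 525. The next closest pair, Lyz2 and Reg4, was identical at 50.2% of the aligned positions. The first 150 coding bases of the close pairs are shown, with the differing bases in capitals, because a read must cover such a base to be assigned.
Lyz1: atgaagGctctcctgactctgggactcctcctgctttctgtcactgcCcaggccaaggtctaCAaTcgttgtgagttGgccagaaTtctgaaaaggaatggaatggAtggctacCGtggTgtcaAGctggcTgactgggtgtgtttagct
Lyz2: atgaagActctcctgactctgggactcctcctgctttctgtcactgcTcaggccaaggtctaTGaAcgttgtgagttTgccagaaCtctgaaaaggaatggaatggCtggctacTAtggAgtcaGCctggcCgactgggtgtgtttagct
Mptx1: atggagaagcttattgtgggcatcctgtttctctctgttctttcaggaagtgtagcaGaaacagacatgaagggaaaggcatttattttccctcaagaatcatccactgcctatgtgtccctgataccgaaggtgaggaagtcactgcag
Mptx2: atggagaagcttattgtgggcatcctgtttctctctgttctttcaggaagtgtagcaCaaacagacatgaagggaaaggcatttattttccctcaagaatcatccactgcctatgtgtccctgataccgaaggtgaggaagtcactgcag
In this stretch the lysozymes differ at 14 bases of 22 in the whole coding sequence, and the pentraxins at 1 of 53. Of all 50-base windows of the transcript, 16.1% of Lyz1, 15.4% of Lyz2, 17.9% of Mptx1 and 18.0% of Mptx2 occur without a mismatch in the partner, so a read that lies wholly in one has no unique position. The read length is not given in the sources used here, and of 75-base windows 6.22%, 5.96%, 10.1% and 10.1% were shared. Ang4 shares 4.70% of its 50-base windows and 0.787% of its 75-base windows, nearly all with Ang5, and the Reg genes share none with any other gene.

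The study also measured lysozyme and Mmp7 by RT–PCR, in sorted Paneth cells of the same genotypes among other samples, with the primers below, shown to place those assays beside the counts. They are in lower case throughout because no base differs from the target.
Lyz forward: gcagccatacaatgtgcaaagagg
Lyz reverse: tttgccctgtttctgctgaagtcc
Mmp7 forward: aggagtgaacttcctgtttgctgc
Mmp7 reverse: ttctgaatgcctgcaatgtcgtcc
Both Lyz primers matched Lyz1 and Lyz2 without a mismatch and frame a product of 245 bases in each. The forward primer lies in the coding sequence and the reverse primer in the 3′ UTR. In a search of all annotated mouse transcripts, the primers had exact sites in these 2 genes only, so this pair measures the sum of both lysozymes. The Mmp7 pair matched Mmp7 alone, with a product of 156 bases inside the coding sequence. In the sorted cells Lyz2 had under 1% of the counts of Lyz1 in every library. By RT–PCR in sorted Paneth cells, the study reported lower means of Lyz and Mmp7 after loss of Mll1, with no test stated. In β-cat GOF organoids it reported higher Mmp7 and no increase of Lyz after this loss.

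The start sites of the lysozymes also resemble each other. The sequences from 150 to 51 bases before the RefSeq start are shown on the minus strand of chromosome 10 in GRCm38.p6, chr10:117292919-117293018 for Lyz1 and chr10:117282323-117282422 for Lyz2, with the bases that differ in the alignment in capitals.
Lyz1: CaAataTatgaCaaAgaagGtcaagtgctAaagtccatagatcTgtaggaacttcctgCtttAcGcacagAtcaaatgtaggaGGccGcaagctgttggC
Lyz2: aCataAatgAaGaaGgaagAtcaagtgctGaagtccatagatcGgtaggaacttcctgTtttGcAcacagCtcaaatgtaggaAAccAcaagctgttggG
The remaining 50 bases next to the start are identical, and over all 150 bases the identity was 88.7%, against 68.4% for Reg3b and Reg3g and 66.9% for Mptx1 and Mptx2. Upstream sequences of 250 bases were searched on both strands for 5 short motifs. The Tcf/Lef core CTTTGT was found in Lyz1, Reg4, Ang4, Mptx1 and Mptx2, 5 of 10 genes, and in 16.5% of 32851 promoters of the same length. Its variant, with the letters CTTTGA, was found in Reg3b, Reg3g and Mptx1 and in 13.8% of all promoters. The Gata motif GATAAG was found in Lyz1, Reg3b, Reg4 and Mmp7, 4 of 10 genes, and in 6.55% of all promoters. The TATA box letters TATAAA were found in Reg3b, Reg3g, Mptx1 and Mmp7 and in 12.4% of all promoters. The E-box CAGCTG was found in 0 of the 10 and in 13.0% of all promoters. In Lyz1 the CTTTGT match, 140 bases before the start, covers bases that differ in Lyz2, where none of the 5 motifs was found. No binding was measured, and a match is a description of letters only.

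Before the results, the libraries at the extremes have to be named. In knockout 3, 19662 genes had at least 1 count, while the other 7 libraries had 22623 to 26074 such genes, and mitochondrial counts were at 2.04% against 3.26% to 8.78%, with a TMM scaling factor of 0.632 against 0.821 to 1.34. Control 1 had the highest mitochondrial share, 8.78%, and the lowest share of counts on Defa genes, 39.4%. Without control 1 the median log2 fold change of the 10 genes was −0.50. Total counts on genes lay between 13037832 and 14380240, so that 3 counts, used here as a detection floor, correspond to 0.173 to 0.353 normalized CPM. Normalized CPM are CPM values taken over the TMM-scaled library size, and a low TMM factor raises every level in that library. All 19 Paneth markers were detected and tested, with a summed level of 322817 to 595664 normalized CPM in the controls and 295743 to 808283 in the knockouts, the highest in knockout 3. Kmt2a, which encodes Mll1, had 268 to 719 counts in the controls and 328 to 523 in the knockouts (log2 fold change −0.06), and a count over all its exons does not show the deletion of some of them. In a bulk sample fewer cells of a type and less RNA per cell cannot be told apart.

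None of the 10 genes differed between the genotypes in the test over all 8 libraries. With edgeR's quasi-likelihood test, 0 of 10 passed an adjusted p of 0.05 with a log2 fold change of at least 0.5, limits that 0.186% of the 13439 genes tested passed. At a false discovery rate of 10% the count was 0, against 0.283% of all genes, and at an unadjusted p under 0.05 it was 0, against 6.88%. DESeq2 called 0 of the 10, against 1.03% of all genes, and gave 0 an unadjusted p under 0.05, against 7.89%. limma-voom with quality weights also called 0, against 0.707% of all genes, and gave 5 an unadjusted p under 0.05, against 12.2%. On normalized CPM the genotypes overlapped for all 10 genes, where 4.52% of all genes did not overlap. The log2 fold changes ran from −1.09 for Reg3b to 0.58 for Reg4, with 7 below and 3 above 0 and a median of −0.23, beside 0.01 over all genes tested. The smallest adjusted p was 0.876. Within the 4 libraries that share the lower run of label numbers (controls 1 and 2, knockouts 1 and 2) the median was −0.37, and within the other 4 it was 0.02.

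Per length, Lyz1 was the most abundant of the 10 in the controls, at a mean of 32566 normalized CPM per kb of the union of annotated exons, followed by Itln1 at 20699, Ang4 at 13946 and Mptx2 at 10258. Mmp7 at 2465, Mptx1 at 2025, Reg3g at 1123, Reg4 at 818, Reg3b at 477 and Lyz2 at 265 followed. With coefficients of variation of 26.4% to 70.1% between the controls, neighbours in this order such as Mmp7 and Mptx1 did not differ beyond their spread. The place of Reg3g depended on the length used. Its annotated exons add up to 2114 bases and its main coding transcript to 771, and per kb of that transcript it was at 3079.7 normalized CPM, above Mmp7 and Mptx1, while Reg3b was at 696. By mean level over the 8 libraries Lyz1 ranked 5th and Itln1 7th of all genes in the table, and Lyz2 ranked 78th.

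Lyz1 (ENSMUSG00000069515, chromosome 10 from 117287797 to 117292868 in mm10) encodes the lysozyme of Paneth granules. It was at 16149, 36279, 55639.9 and 56458 normalized CPM in controls 1 to 4 and at 27616, 21536, 72635 and 20213 in knockouts 1 to 4. Knockout 3 was the highest of the 8 libraries, the other 3 knockouts lay between control 1 and control 2, and the groups overlapped. The controls had a mean of 41131 ± 19088 and the knockouts one of 35500.0 ± 24966 (SD, 4 libraries each). This gave a log2 fold change of −0.21 with a 95% interval of −1.35 to 0.93 (edgeR, adjusted p = 0.986), so that these libraries leave room for a change of more than 1 log2 unit downwards.

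Lyz2 (ENSMUSG00000069516, chromosome 10 from 117277331 to 117282321), the lysozyme of macrophages and neutrophils, followed Lyz1 at a far lower level. It was at 129.7, 348, 447 and 468 normalized CPM in the controls and at 213, 167, 626 and 169.9 in the knockouts, from 2063 to 5910 counts. The order of the libraries was close to that of Lyz1, with knockout 3 highest and control 1 lowest. Between genotypes the log2 fold change was −0.25 with a 95% interval of −1.29 to 0.80 (adjusted p = 0.982). Myeloid markers were low in the same libraries. The summed level of 10 such markers was 3.10 to 8.11 normalized CPM in the controls and 2.00 to 5.96 in the knockouts, 2 of them passed the filter, and 0 were at 0 in every library. Cd14 was at 0.589 to 4.97 (5 to 79 counts) and Cd68 at 0.243 to 1.85 (4 to 31 counts), the 2 that passed. Of the others, Itgam reached 1.26 and Mrc1 0.880, each at or below the floor in most libraries. Csf1r was at most at 0.417, Adgre1 at 0.189 and Tyrobp at 0.115, and Fcgr3 had a single count in 1 library. Without knockout 3 the log2 fold change of Lyz2 was −0.93 (SE 0.37, adjusted p = 0.381).

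The ratio of Lyz2 to Lyz1 does not depend on scaling and was nearly constant. Lyz2 had 0.803%, 0.959%, 0.804% and 0.8287% of the Lyz1 counts in controls 1 to 4 and 0.770%, 0.775%, 0.862% and 0.841% in knockouts 1 to 4. The highest and lowest ratios differed 1.25-fold, while Lyz1 itself differed 4.50-fold between libraries. The mean log2 ratio differed by −0.06 between the genotypes (exact permutation test over 70 splits, two-sided, p = 0.514, adjusted over 3 ratios p = 0.771). Whether part of the Lyz2 counts came from Lyz1 molecules that were read or copied with an error was not tested.

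**Figure D1:**
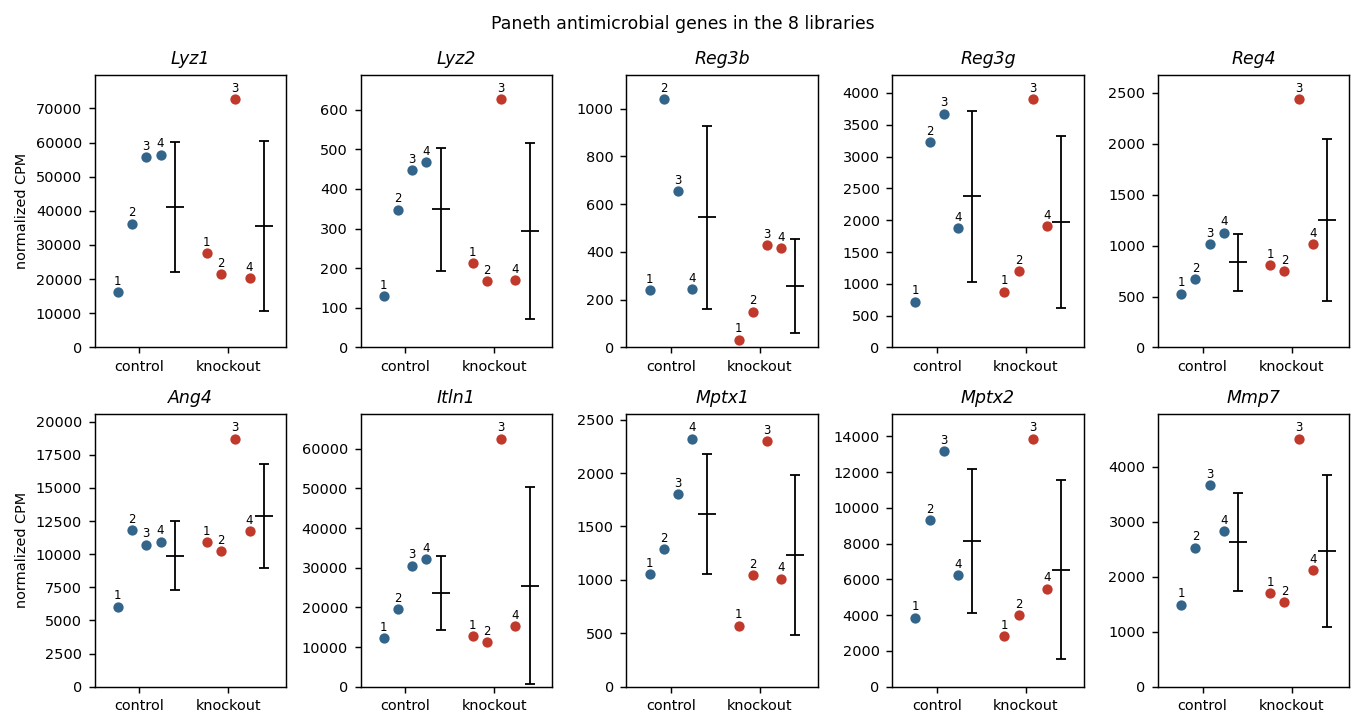
Normalized CPM (linear axis from 0) of each of the 10 genes in the 4 control libraries (blue) and the 4 knockout libraries (red), numbered by replicate, with the mean and SD (n = 4) in black. Knockout 3 is the highest of the 8 libraries in 8 of the 10 genes, control 1 is the lowest in 6, and the groups overlap in every panel.

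Reg3b (ENSMUSG00000071356, chromosome 6 from 78370657 to 78373466) had the widest spread of the 10. It encodes a secreted C-type lectin of the gut epithelium. It was at 240.2, 1038, 656 and 246 normalized CPM in the controls and at 32.6, 149.7, 429 and 416 in the knockouts. The highest library, control 2, was 31.9-fold above the lowest, knockout 1, and knockouts 3 and 4 lay above controls 1 and 4. The log2 fold change of −1.09 was the lowest of the 10, with a 95% interval of −2.62 to 0.45 (adjusted p = 0.876). Within the lower run of label numbers the log2 fold change was −2.81 and within the higher run −0.08, with unadjusted p-values of 0.138 and 0.880 from edgeR. Without control 2 it was −0.57.

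Reg3g (ENSMUSG00000030017, chromosome 6 from 78466269 to 78468872), the neighbouring lectin with bactericidal activity against Gram-positive bacteria, was at 720.5, 3226, 3677 and 1874 normalized CPM in the controls. The knockouts were at 877, 1201, 3900.2 and 1911. Control 1 was lowest and knockout 3 highest, and the log2 fold change was −0.27 with a 95% interval of −1.44 to 0.90 (adjusted p = 0.984). Reg3g had 3.00, 3.11, 5.61 and 7.63 counts per Reg3b count in the controls and 26.9, 8.02, 9.09 and 4.59 in the knockouts. The ratio was above every control in 3 of 4 knockouts, led by knockout 1, where Reg3b was lowest. On the log2 scale the ratio averaged 2.16 ± 0.66 for controls and 3.28 ± 1.07 for knockouts (SD, 4 libraries each), a difference of 1.12 that did not pass the test (exact permutation test, two-sided, p = 0.143, adjusted p = 0.429). The difference was 0.64 without knockout 1 and 1.49 without knockout 4.

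Reg4 (ENSMUSG00000027876, chromosome 3 from 98222156 to 98236748), a Reg lectin of secretory cells that is also found in enteroendocrine cells, was at 529, 675, 1011 and 1128 normalized CPM in the controls and at 811, 747, 2435 and 1017 in the knockouts. Only knockout 3 lay above the controls. Its fitted log2 fold change was 0.58 with a 95% interval of −0.29 to 1.45 (adjusted p = 0.886), the highest of the 10. Without knockout 3 it was 0.04 (adjusted p = 0.978), so that under TMM scaling the value rested on knockout 3. On total counts without that library the fold change of Reg4 was 0.52 (edgeR, adjusted p = 0.146). In that fit all genes had a median of 0.43, and 26% of them had an unadjusted p under 0.05 with higher knockouts. The enteroendocrine markers had a summed level of 224 to 835 normalized CPM in the controls and of 45.7 to 216 in the knockouts, and 7 of 10 had an unadjusted p under 0.05 and were lower in the knockouts, 0 of them past the adjusted limit. Their part in the level of Reg4 was not tested.

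Ang4 (ENSMUSG00000060615, chromosome 14 from 51763878 to 51773590), a secreted ribonuclease-like protein that kills bacteria, had the lowest coefficient of variation of the 10 in both genotypes (26.4% in the controls, 30.5% in the knockouts). It was at 6042, 11823, 10726 and 10959 normalized CPM in the controls and at 10901, 10220.4, 18721 and 11765 in the knockouts. Apart from control 1 on the low side and knockout 3 on the high side, the libraries lay within 10220.4 to 11823. In the fit the log2 fold change was 0.38 with a 95% interval of −0.34 to 1.11 (adjusted p = 0.916).

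Ang4 and Reg4 depended on the scaling. As a share of all gene counts, Ang4 took 0.692%, 1.08%, 0.879% and 0.963% in the controls and 1.39%, 1.36%, 1.18% and 1.43% in the knockouts, so every knockout lay above every control. Reg4 took 0.0605% to 0.0990% in the controls and 0.0995% to 0.154% in the knockouts, which separated the groups by a narrow gap. These 2 of 10 genes were the ones that did not overlap on this scale, and 3.95% of all genes tested were likewise higher in every knockout. With total counts in place of TMM-scaled library sizes, Ang4 had a log2 fold change of 0.57 (unadjusted p = 0.022, adjusted p = 0.646) and Reg4 of 0.66 (unadjusted p = 0.026, adjusted p = 0.668). On this scale 6.06% of all genes had an unadjusted p under 0.05 with higher knockouts, and the median over all genes was 0.25. With library sizes set to the summed Defa counts, the same 2 genes had an unadjusted p under 0.05, against 4.04% of all genes in that direction, and the median over all genes was again 0.25. On either scale 0 of the 10 genes passed the limits, which 15 of 13439 genes passed on each. No gene was tested against these medians.

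Itln1 (ENSMUSG00000038209, chromosome 1 from 171518122 to 171535294) encodes intelectin, a lectin that binds microbial sugars. It was at 12212, 19618, 30552 and 32088 normalized CPM in the controls and at 12762, 11276, 62515 and 15221 in the knockouts. Knockout 3 was 4.78-fold above the mean of the other knockouts and 1.95-fold above the highest control. The other 3 knockouts were all below control 2. With all 8 libraries the log2 fold change was 0.11 with a 95% interval of −1.15 to 1.36 (adjusted p = 0.995) and turned to −0.86 without knockout 3 (adjusted p = 0.356).

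The mucosal pentraxins are members of the C-reactive protein family. Mptx1 (ENSMUSG00000026531, chromosome 1 from 174330518 to 174332873) was at 1057, 1290.3, 1804 and 2322 normalized CPM in the controls and at 573, 1044, 2302 and 1012 in the knockouts. Knockouts 1, 2 and 4 were below every control, by a small margin for knockouts 2 and 4, and knockout 3 was level with control 4. The log2 fold change was −0.39 with a 95% interval of −1.28 to 0.49 (adjusted p = 0.943). Mptx2 (ENSMUSG00000079180, chromosome 1 from 173274382 to 173277777) was at 3870.0, 9301, 13179 and 6230.2 normalized CPM in the controls and at 2821, 3985, 13869.6 and 5488 in the knockouts. Control 3 and knockout 3 were highest and knockout 1 lowest, and the log2 fold change was −0.32 with a 95% interval of −1.45 to 0.82 (adjusted p = 0.974). Mptx1 had 13.7% to 37.3% of the Mptx2 counts in the controls and 16.6% to 26.2% in the knockouts. The mean log2 ratio differed by −0.06 (exact permutation test, two-sided, p = 0.886, adjusted p = 0.886), with a larger spread among the controls (SD 0.72, n = 4) than among the knockouts (SD 0.28, n = 4).

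**Figure D2:**
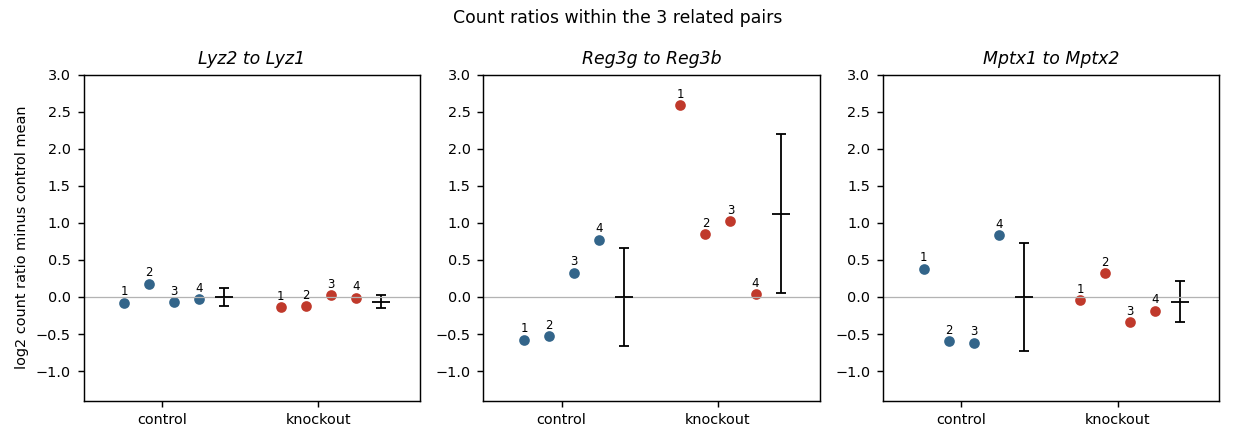
Log2 ratio of counts within each library for the 3 related pairs, after subtraction of the control mean, with libraries numbered by replicate and the mean and SD (n = 4) in black. The Lyz2 to Lyz1 ratio stays within a 1.25-fold range over the 8 libraries, while Reg3g to Reg3b covers an 8.97-fold range and Mptx1 to Mptx2 a 2.72-fold range.

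Mmp7 (ENSMUSG00000018623, chromosome 9 from 7692090 to 7699585) was at 1494, 2531, 3669 and 2834 normalized CPM in the controls and at 1705, 1544, 4512 and 2127 in the knockouts. Its highest level, in knockout 3, was 3.02-fold above its lowest, in control 1, the smallest such ratio of the 10 genes. The log2 fold change was −0.09 with a 95% interval of −0.94 to 0.76 (adjusted p = 0.995). Of its exon bases, 11.5% also belong to AV064505 on the opposite strand, and the libraries were made by a tagmentation that does not mark strand, so reads there cannot be told apart.

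Without knockout 3, 8 of the 10 genes were lower in the knockouts and the median log2 fold change was −0.85, beside −0.01 over all genes. Of the 10, 0 passed the limits, which 1.08% of 14086 genes passed in that fit. An unadjusted p under 0.05 with lower knockouts was found for Lyz2, Itln1, Mptx1 and Mptx2, 4 of 10, against 4.85% of all genes. The 10 genes are correlated, with a median r of 0.69 over 45 pairs in these 7 libraries, so these are not 4 independent results. Of 19 other Paneth markers in that fit, 7 had an unadjusted p under 0.05 with lower knockouts and 1 with higher (median −0.48), and 0 were called. Of the other antimicrobial genes, 9 were lower and 4 higher at that limit (median −0.42), and 1 was called. Of the 10 genes, Mptx1 had the smallest adjusted p, 0.263, with a log2 fold change of −0.89 (SE 0.30). Lyz1 had a log2 fold change of −0.83 (SE 0.39, adjusted p = 0.456). Mmp7 was at −0.56 (SE 0.28) and Reg4 and Ang4 at 0.04 and 0.15. limma-voom with quality weights, which keeps knockout 3 and gives each library its own weight, gave a median of −0.80 and an unadjusted p under 0.05 with lower knockouts for 5 of 10 genes, against 5.72% of all genes, with a smallest adjusted p of 0.244. With knockout 3 left out, the median of the 10 genes was −0.34 on total counts, where all genes had a median of 0.43, and −0.25 on summed Defa counts, where it was 0.46. Both scalings moved all genes upwards, and the median of the 10 stayed below that of all genes on each, while Ang4 and Reg4 lay above it. An unadjusted p under 0.05 with lower knockouts was found for 0 of 10 on either scale, against 0.561% of all genes on total counts and 0.398% on Defa counts. Lyz1 was at −0.32 and −0.19, Mptx1 at −0.40 and −0.32 and Itln1 at −0.36 and −0.26 on these scales. Reg4 was at 0.52 and 0.60 with unadjusted p-values of 0.030 and 0.021 (edgeR), in fits where 26% and 18.1% of all genes had an unadjusted p under 0.05 with higher knockouts. With knockout 3 left out and total counts as library sizes, Ang4 passed a false discovery rate of 10% (log2 fold change 0.63, adjusted p = 0.084), as did 13.6% of all genes. With the summed Defa counts as library sizes it did so at 0.70 (adjusted p = 0.089), as did 3.54% of all genes. The low mitochondrial share, the low number of genes and the low TMM factor of knockout 3 move with these differences, and their part was not tested.

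**Figure D3:**
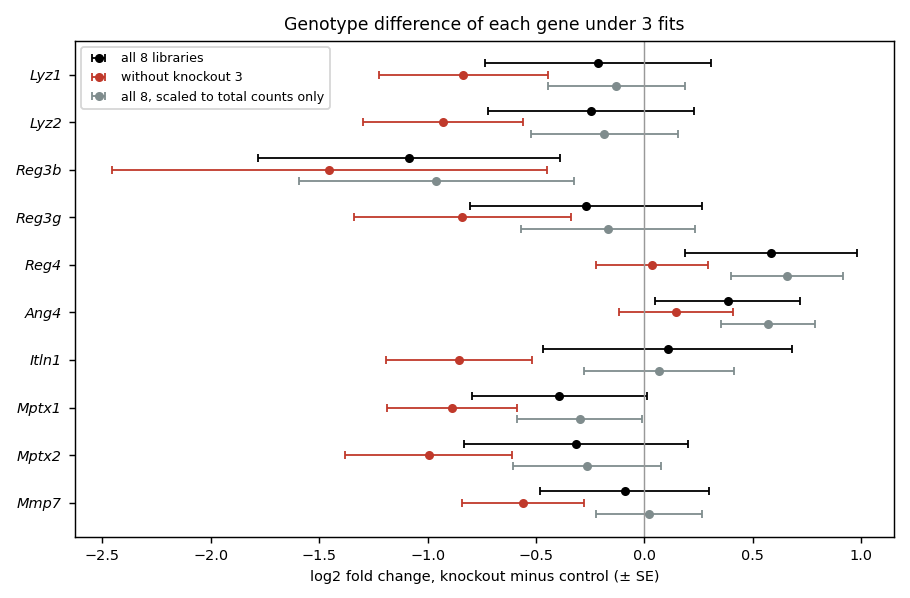
Log2 fold change of each gene, knockout minus control, with its SE, from edgeR on all 8 libraries with TMM scaling (black), without knockout 3 (red) and on all 8 libraries with total counts as library sizes (grey). Itln1 moves from 0.11 to −0.86 and Lyz1 from −0.21 to −0.83 when knockout 3 is left out, and Ang4 and Reg4 are the only genes above 0 in all 3 fits.

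Together the 10 genes took 4.86%, 7.85%, 9.94% and 10.1% of all gene counts in controls 1 to 4 and 7.44%, 6.91%, 11.5% and 7.20% in knockouts 1 to 4. The lowest and the highest share were those of control 1 and knockout 3. The controls averaged 8.18% ± 2.44 and the knockouts 8.25% ± 2.16 (SD, 4 libraries each). The difference of 0.07 percentage points became −1.001 without knockout 3, −1.04 without control 1 and 0.70 without control 4, so its sign rested on single libraries. Lyz1 and Itln1 made up most of it in every library. Defa genes took a further 39.4% to 54.6% of the counts in the controls and 44.8% to 53.9% in the knockouts.

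**Figure D4:**
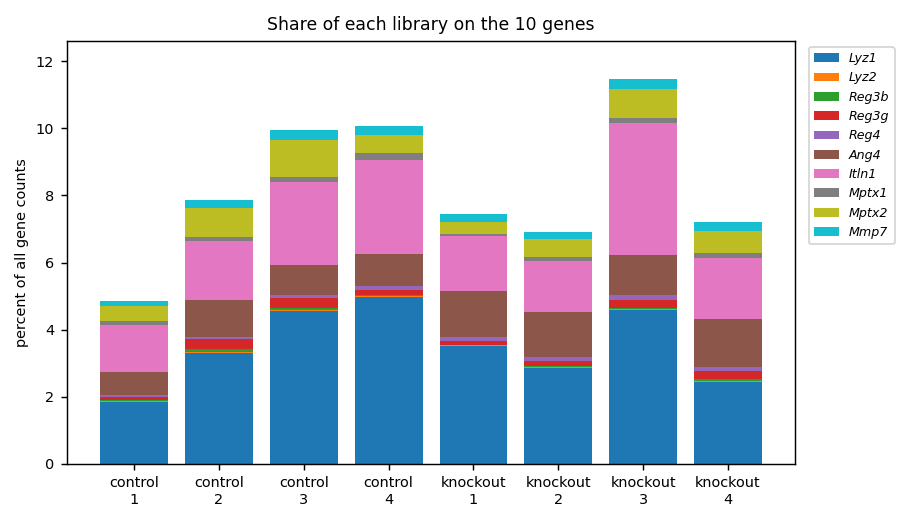
Percent of all gene counts on each of the 10 genes, stacked for each library. The totals run from 4.86% in control 1 to 11.5% in knockout 3, and the Ang4 segment is larger in every knockout (1.18% to 1.43%) than in every control (0.692% to 1.08%).

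Most of the 10 genes rose and fell together across libraries on normalized CPM, Reg3b less so (r = 0.34 with Lyz1 and 0.80 with Mptx2). On log2 normalized CPM over the 8 libraries, the Pearson r of the 45 pairs ran from 0.17 for Reg3b with Reg4 to 0.99 for Lyz1 with Lyz2, with a median of 0.78, and 0 pairs were below 0. All points share the scaling of their library, and on the share of counts, which carries no TMM factor, the median was 0.45 and 6 pairs were below 0. Lyz1 with Lyz2 remained at 0.98 and Reg3g with Mptx2 at 0.91, while Ang4 with Mptx1 was at −0.35. Among 4330 other genes with a mean of at least 10 normalized CPM, the gene closest to Lyz1 was Rab3d (r = 0.99 over 8 libraries), a small GTPase of secretory granules. The closest to Mmp7 was Defa24 (0.99), to Reg4 the pancreatic lipase relative Pnliprp2 (0.99), to Ang4 the endoplasmic reticulum protein Bcap31 (0.99), to Itln1 Nbas (0.99) and to Lyz2 Gdpd1 (0.99). Mptx2 was closest to Smim6 (0.98), Reg3g to Fam221b (0.97), Mptx1 to Hars (0.94) and Reg3b to Fam83e (0.91). Without knockout 3 the closest gene was again Rab3d for Lyz1, Fam221b for Reg3g and Bcap31 for Ang4. It changed for the other 7 members, for Mmp7 to Nbas, for Reg4 to Ddx50, for Itln1 to Osbpl2, for Lyz2 to Tspan1, for Mptx1 to Hibadh, for Mptx2 to Mob4 and for Reg3b to Slfn5. These are descriptions of 8 or 7 libraries that share scaling factors.

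Of 39 other antimicrobial and mucosal defence genes, 38 were in the table and 25 were tested. In edgeR's fit 0 were called, 6 had an unadjusted p under 0.05, 2 with higher and 4 with lower knockouts, and the median log2 fold change was 0.15. The most abundant was Pla2g2a, a secreted phospholipase of Paneth granules, at 10421, 566, 669.9 and 25155.5 normalized CPM in the controls and 548, 459.5, 45507 and 19109.7 in the knockouts. Its libraries fell into a low and a high range in both genotypes. Retnlb, a goblet cell protein, was at 32.5 in control 2 and at 1142 to 5224 in the other libraries, and the chemokine Ccl6 was at 808 to 3478. Reg1, a Reg lectin, was at 2.61 to 9.63 in the controls and 0.118 to 1.84 in the knockouts (log2 fold change −2.69, adjusted p = 0.260), with no overlap. Sprr2a1 and Sprr2a2, related small proline-rich proteins whose shared sequence was not measured here, had log2 fold changes of 4.62 and 4.52 (adjusted p = 0.255 and 0.344), led by knockout 4 at 61.4 and 21.4. The lectin Zg16, at 304 in control 3 and at most 49.6 elsewhere, and the chemokines Ccl25 (−1.12) and Ccl28 (−0.84) made up the rest of the 6. Without knockout 3 the median turned to −0.42, with 9 lower and 4 higher knockouts at an unadjusted p under 0.05, and 1 gene was called, Reg3a, with 22, 31, 9 and 23 counts in the controls, 2, 3 and 0 counts in knockouts 1, 2 and 4, and 46 counts in knockout 3.

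Of 14 genes for lysozyme sorting, autophagy and endoplasmic reticulum stress, 11 were tested and 0 called, with a median log2 fold change of 0.21 that turned to −0.09 without knockout 3. Xbp1, a stress transcription factor of secretory cells, was at 69.5 to 112 normalized CPM in the controls and 73.1 to 207 in the knockouts. Rab2a, a GTPase that guides lysozyme into granules, was at 58.0 to 85.4 and 57.1 to 92.4, and Ern2 at 26.3 to 31.9 and 24.5 to 64.6. Irgm1 had the single unadjusted p under 0.05 (log2 fold change 0.97, adjusted p = 0.480). Of 14 genes for the induction of Reg3 lectins through Il22 and Toll-like receptors, 10 were tested and 0 had an unadjusted p under 0.05, with a median of 0.38 that was −0.0044 without knockout 3. Jak1, Stat3 and Il10rb were the most abundant, with log2 fold changes of −0.08, 0.29 and −0.13. The receptor subunit Il22ra1 was at most at 0.871 normalized CPM and did not pass the filter. Of 24 other metalloproteases, their inhibitors and the metalloprotease inducer Bsg, 6 were tested and 0 called. Bsg and Adam10 led in level, with log2 fold changes of 0.21 and 0.67 (adjusted p = 0.671 for Adam10), and Mmp14, at 8.83 to 14.5 normalized CPM, was the most abundant Mmp other than Mmp7. The inhibitor Timp2 was at 1.35 to 1.95 in the controls and 2.00 to 5.41 in the knockouts, with no overlap (log2 fold change 1.33, adjusted p = 0.387), and passed the limits without knockout 3 (1.54, adjusted p = 0.033).

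Markers of other cell types were measured beside these genes. The summed level of 12 goblet markers was 9506 to 18175 normalized CPM in the controls and 8084 to 19473 in the knockouts. That of 9 stem cell markers was 729.6 to 1558 and 300.1 to 1005, of 8 tuft markers 269.8 to 778 and 151 to 499, and of 10 enterocyte markers 167 to 344 and 148 to 280.0. Lymphoid markers were at 3.17 to 13.8 and 2.13 to 11.6. None of these markers was called. At an unadjusted p under 0.05 (edgeR), 2 goblet, 3 stem, 2 tuft and 2 of 7 tested enterocyte markers were lower in the knockouts. At that limit 2 stem markers were higher, and 6.88% of all genes passed in either direction. The part of these markers in the levels of the 10 genes was not tested.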

How the data were processed

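RNA of 300 sorted Paneth cells per sample was measured by Smart-seq2 in 4 controls and 4 knockouts. The authors aligned reads to mm10 with GSNAP and used featureCounts 1.6.3 to count reads with a unique position on Ensembl release 92, and the submitters' processing notes also name bcl2fastq 2.19.1. The deposited values are raw counts per gene without normalization. The strand setting of the counting is not given in the sources used here. PCR copies were counted separately, so detection floors cover counting error only, and the 95% intervals of fold changes rest on the spread between libraries. The 92 spike-in rows, with at most 7 counts in a library, were left out. Of 53801 Ensembl identifiers, 53620 had a symbol.

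The 10 genes, the gene lists and the tests were chosen with earlier results of these data known. Samples were grouped by the genotype in the labels. Replicate numbers are names given in accession order. The study gives them as separate mice, and p-values measure the spread between these samples. Total counts per library were 13037832 to 14380240.

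In R 4.3.3, edgeR 4.0.16 (TMM, filterByExpr at 10 counts and 15 in total, robust quasi-likelihood test, Benjamini-Hochberg adjustment over 13439 genes) was the main test, and DESeq2 1.42.0 and limma 3.58.1 were alternatives. The SE was taken as the fold change divided by the square root of F. Levels for correlations are log2 with 0.5 CPM added. Ratios were compared by exact permutation over libraries. The code was tested on simulated data. Of the antimicrobial, sorting, induction and metalloprotease lists, genes past both limits are named, or else the 3 most abundant and those with an unadjusted p under 0.05. Cell type markers other than myeloid ones are given as sums and counts, without naming those under this p. Reg3a, Ang5, AV064505 and Il22ra1 were named after their values were seen. Coding sequences are from GENCODE M21 and upstream sequences from RefSeq (GRCm38.p6, 10 of 10 genes matched). Primer sequences are the study's. Sequences were aligned with Biopython 1.88.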

Additional observations from a re-analysis of the deposited data

Results flagged for a closer look

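Dixon's ratio divides the distance from an extreme library to its neighbour by the range of its group. It passed the 95% critical value for 4 libraries in 5 of the 28 groups examined. About 1.4 are expected by chance, 1 in 20 groups, and the groups share libraries. In all 5 the library was knockout 3. For Lyz1 the gap was 0.859 of the range, with 72635 normalized CPM against 20213 to 27616 in the other knockouts. For Lyz2 it was 0.900, with 626 against 167 to 213. For Reg4 it was 0.840, with 2435 against 747 to 1017. For Itln1 it was 0.923, with 62515 against 11276 to 15221. For the summed share of the 10 genes it was 0.884, with 11.5% of counts against 6.91% to 7.44%, a value that carries no TMM factor. Without knockout 3 the log2 fold change was −0.83 for Lyz1, −0.93 for Lyz2, 0.04 for Reg4 and −0.86 for Itln1, and the difference in the summed share went from 0.07 to −1.001 percentage points.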

How the results depend on the processing

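In all 24 fits and thresholds run, 0 of the 10 genes passed an adjusted p of 0.05 with a log2 fold change of at least 0.5. Lyz1, Lyz2, Reg3b, Reg4, Ang4 and Mptx1 kept their sign under every normalization, filter, test and left-out library tried. Itln1 turned from 0.11 to −0.78 with limma-voom and to −0.047 in a fit blocked on the run of label numbers, and over the fits that left out 1 library it ran from −0.86 to 0.35. In fits chosen after seeing the data, Itln1 was at −0.41 in the lower label run, −0.26 without knockout 3 on Defa sizes and −0.36 on total counts. Mmp7 turned from −0.09 to 0.021 without normalization factors and to 0.045 on Defa sizes, and ran from −0.56 to 0.11 with 1 library left out. It was at 0.041 in the higher label run and 0.016 without knockout 3 on Defa sizes. With 1 library left out, Reg3g ran from −0.84 to 0.020 and Mptx2 from −0.99 to 0.013, and in the higher label run they were at 0.078 and 0.0081. The log2 ratio of Mptx1 to Mptx2 differed by −0.06 and ran from −0.27 to 0.21 with 1 library left out, that of Reg3g to Reg3b from 0.64 to 1.49, and the difference in the summed share of counts from −1.04 to 0.70 percentage points. Over the fits that left out 1 library, the median of the 10 genes ran from −0.85 without knockout 3 to 0.017 without control 3. In the higher label run the median was 0.025. The number of all genes called was 25, against 138 with DESeq2, 290 without a filter, 152 without knockout 3 and 10 without control 3. It was 782 without knockout 3 on total counts, 258 without it on Defa sizes, and 2 in the higher label run. No paired analysis was possible because the labels give a number shared by a control and a knockout for 1 pair only, and name no litter or day. With 4 libraries a group, a change of 1 log2 unit in at least 1 direction was within the 95% interval of every gene but Mmp7 (−0.94 to 0.76). Only for Itln1 (−1.15 to 1.36) was it within the interval in both directions.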
